A study of Homo sapiens with 9 samples.

Results

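The genes described here are the Notch receptors NOTCH1, NOTCH2 and NOTCH3, the ligands JAG1 and JAG2, the nuclear partner RBPJ, and HES1, HES4, HES7 and HEY1, repressors that Notch is known to switch on. They were taken by name, with earlier results of these data known, and make up 10 of the 19257 genes in the deposited tables. Of these, 8 had enough reads to be tested, as did 12574 genes in all, while NOTCH3 and HEY1 stayed under the low-count filter.

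The libraries came from A549, a human lung adenocarcinoma line grown in serum-containing medium, and 3 libraries each stood for 3 groups. Cells labelled OGT_KO received a Lenti-CRISPR-V2 plasmid directed at OGT, the enzyme that puts O-GlcNAc on nuclear and cytosolic proteins. Cells labelled TR11B_KO received the same kind of plasmid directed at TR11B, taken here as TNFRSF11B, the osteoprotegerin gene. Cells labelled NC carry the genotype label WT but received the empty plasmid, so all 3 groups went through plasmid delivery. The deposited library names hold the tags GTsg12 for OGT_KO and TBsg1 for TR11B_KO, which may each stand for a single guide. Guide sequences and clones are not given in the sources used here. An effect of a single guide or clone and an effect of the knockout therefore cannot be told apart. The labels speak of biological replicates without naming separate cultures, so p-values measure the spread between libraries, which may be technical only. In bulk RNA, fewer cells of a type and less RNA per cell cannot be told apart.

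Library totals ran from 38327508 to 42245970 counts. TR11B_KO replicate 2 stood apart, with a TMM scaling factor of 0.784 where the other libraries had 0.951 to 1.16, and 14128 genes with a count where the others had 14581 to 14954. OGT had 21.1, 28.3 and 22.9 CPM in OGT_KO and 17.0, 11.5 and 12.4 CPM in TR11B_KO, against 29.6, 26.9 and 24.7 CPM in NC, so its transcript did not set the OGT_KO libraries apart from NC (log2 fold change −0.17 ± 0.21 (SE), edgeR adjusted p = 0.607). In TR11B_KO, where OGT was not the labelled target, it fell by 0.99 ± 0.21 (adjusted p = 0.00393). TNFRSF11B had summed counts of 1 in OGT_KO and 4 in TR11B_KO, against 31 in NC. The group names therefore stand for the labels. The keratins KRT7, KRT8 and KRT18 were abundant in every group, at means of 3240 to 11500 CPM. The keratin KRT19 was not, with means of 0.0901 CPM in OGT_KO and 0.41 CPM in TR11B_KO, against 0.138 CPM in NC. The epithelial markers EPCAM and CDH1 were at or near 0, with means of at most 0.0171 CPM. Of 6 alveolar markers looked for, only 2, NAPSA and ABCA3, were in the deposited tables. NAPSA had means of 0.0759 CPM in OGT_KO and 0.144 CPM in TR11B_KO, against 0.0655 CPM in NC, and ABCA3 had 140, 213 and 178 CPM in the same groups.

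Notch receptors are single-pass proteins that bind ligands of the Jagged and Delta families on a neighbouring cell. Binding exposes the receptor to cleavage by ADAM proteases and then by the gamma-secretase complex, and the freed intracellular part joins the DNA-binding protein RBPJ and a Mastermind co-activator at genes of the HES and HEY families. In airway epithelium, Notch is known for directing progenitors towards secretory and away from ciliated fates. Sugars on the receptor's EGF repeats set its response to ligands. The O-GlcNAc found there is added in the endoplasmic reticulum by EOGT, a different enzyme from OGT.

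Since HES1, HES4 and HES7 gave different calls, the 250 bases before their annotated starts are shown first, from RefSeq (GRCh38.p14). HES1 is shown from chr3:194135898-194136147 on the plus strand, HES4 from chr1:1000098-1000347 on the minus strand and HES7 from chr17:8124107-8124356 on the minus strand. Capitals mark TGGGAA, the core of the motif that RBPJ binds, searched on both strands.
HES1: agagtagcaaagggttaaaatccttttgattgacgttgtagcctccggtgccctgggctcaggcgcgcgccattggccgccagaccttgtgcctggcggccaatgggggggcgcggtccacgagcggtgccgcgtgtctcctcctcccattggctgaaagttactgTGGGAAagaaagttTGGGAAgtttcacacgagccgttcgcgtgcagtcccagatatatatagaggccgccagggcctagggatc
HES4: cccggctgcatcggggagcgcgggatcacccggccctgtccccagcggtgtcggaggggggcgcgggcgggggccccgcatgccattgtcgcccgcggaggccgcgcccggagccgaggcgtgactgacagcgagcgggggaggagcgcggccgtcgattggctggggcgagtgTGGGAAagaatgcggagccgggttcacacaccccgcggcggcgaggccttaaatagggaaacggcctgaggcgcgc
HES7: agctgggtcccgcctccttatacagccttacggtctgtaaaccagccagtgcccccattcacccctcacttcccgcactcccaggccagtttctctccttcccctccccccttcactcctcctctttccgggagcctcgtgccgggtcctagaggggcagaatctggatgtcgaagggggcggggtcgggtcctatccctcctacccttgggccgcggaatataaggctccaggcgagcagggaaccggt

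The HES1 window held 2 copies of TGGGAA, beginning 84 and 70 bases before the start, and the HES4 window held 1, beginning 76 bases before it. The HES7 window held 0 copies, and this says only that the letters are not in that window. Across 35116 windows of the same length, 20.8% held the motif. CACNAG, the N-box that HES proteins are known to bind, was found 3 times in the HES1 window, 1 time in that of HES7 and 0 times in that of HES4, against 32% of all windows. The 2 motifs did not overlap in these windows. The HES7 window lies before a start inside the gene's RefSeq span (chromosome 17, 8120592 to 8126634) and not at its outer end.

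Levels per gene length were compared in FPKM, the authors' read number scaled by gene length and library total, which is not rescaled for composition. HES4 was the highest of the 10 genes in every group, at 69.7 ± 8.16 FPKM in OGT_KO, 89.2 ± 21.3 in TR11B_KO and 70.0 ± 10.4 in NC (SD, n = 3 each). JAG2 followed at 12.1 ± 0.556, 12.8 ± 1.19 and 18.2 ± 0.622 FPKM in the same groups. HES1, the HES gene most often used as a readout of Notch, was at only 1.23 ± 0.183, 0.870 ± 0.537 and 0.930 ± 0.307 FPKM in these groups, and RBPJ at 0.322 ± 0.135, 0.179 ± 0.106 and 0.193 ± 0.0696. HES7 had rank 4 of the 10 genes in OGT_KO (3.92 ± 0.0652 FPKM) and rank 3 in TR11B_KO (1.80 ± 0.291), but rank 7 in NC (0.813 ± 0.0694). JAG1 and HES1, next to each other in the order of all 3 groups, overlapped in every group. NOTCH2 and HES7 overlapped in OGT_KO and TR11B_KO, whereas in NC NOTCH2 lay above HES7 in every library.

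**Figure D1:**
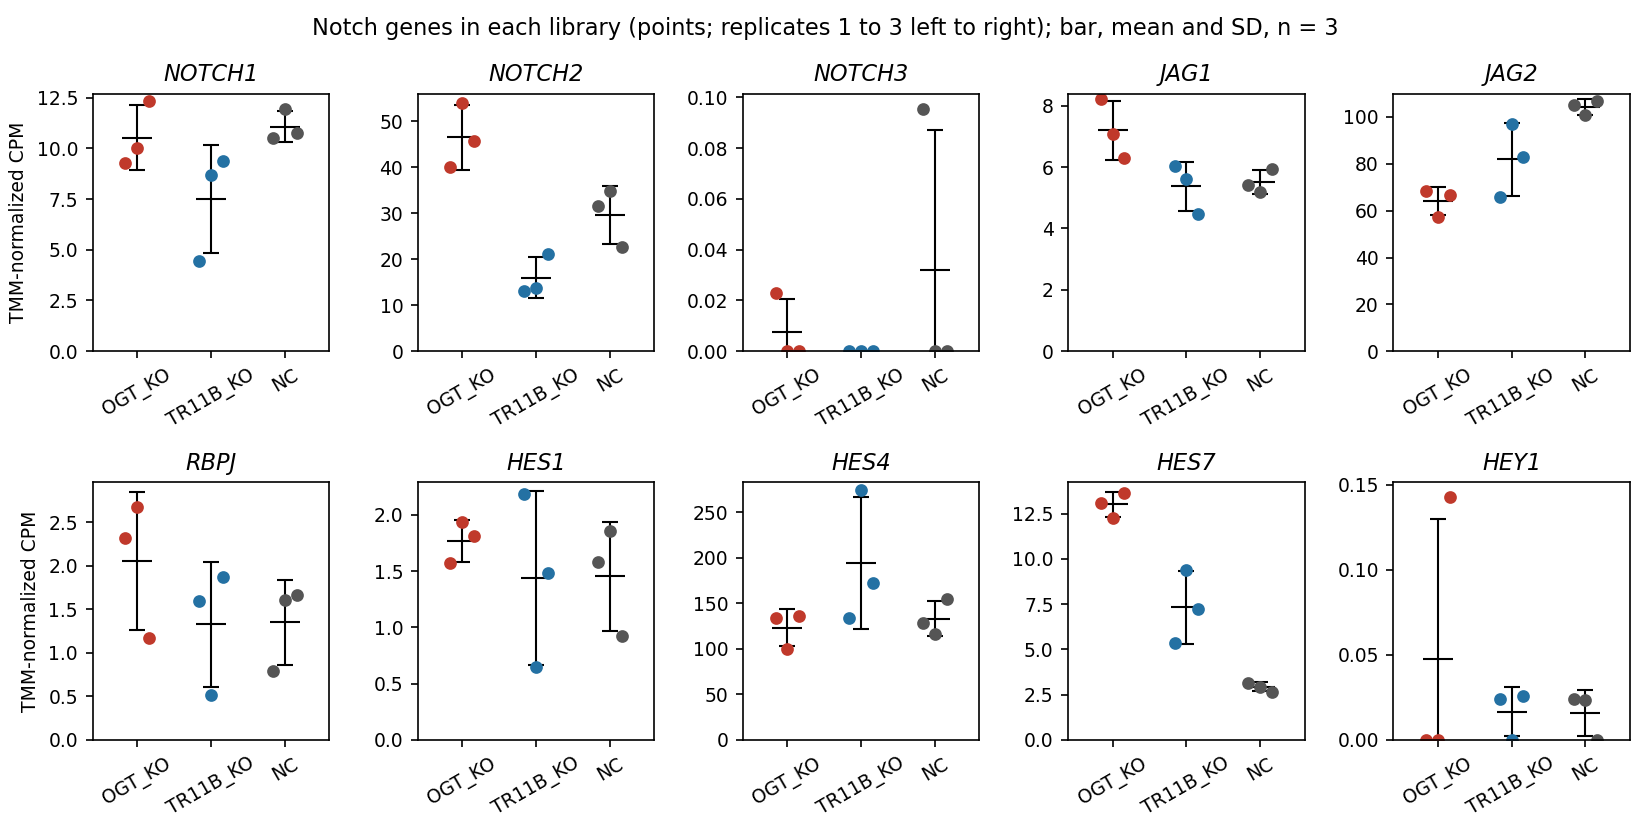
TMM-normalized CPM (vertical axis, from 0) of the 10 Notch genes in the 9 libraries, by group; points are libraries and bars are means with SD (n = 3). HES7 is lowest in all 3 NC libraries, NOTCH2 is lowest in all 3 TR11B_KO libraries, JAG2 is highest in all 3 NC libraries, and NOTCH3 and HEY1 stay under 0.15 CPM.

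HES7 rose in both knockouts. NOTCH2 fell in TR11B_KO by its own counts, and JAG2 fell in OGT_KO. With the edgeR quasi-likelihood test and an adjusted p under 0.05 over all tested genes, 1 of the 8 tested Notch genes rose and 1 fell in OGT_KO against NC, where 8.26% of all tested genes rose and 10.1% fell. In TR11B_KO against NC it was again 1 that rose and 1 that fell, where 13.2% of all tested genes rose and 14.3% fell. Their median log2 fold change was 0.33 in OGT_KO, where that of all tested genes was 0.03, and −0.02 in TR11B_KO, where that of all tested genes was −0.01. The 2 of 8 called in each knockout, 25%, stood beside 18.3% of all tested genes called in OGT_KO and 27.6% in TR11B_KO, and the difference in share was not tested. Between OGT_KO and TR11B_KO, 2 of the 8 were higher in OGT_KO (NOTCH2 and HES7) and 1 was lower (HES4), where 16.7% of all tested genes were higher and 16.5% lower. The groups of 4, 4 and 3 of the 8 did not overlap in the 3 comparisons, where that held for 49.8%, 40.9% and 44.9% of all tested genes. The 2 contrasts with NC share its libraries, so their fold changes are not independent.

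**Figure D2:**
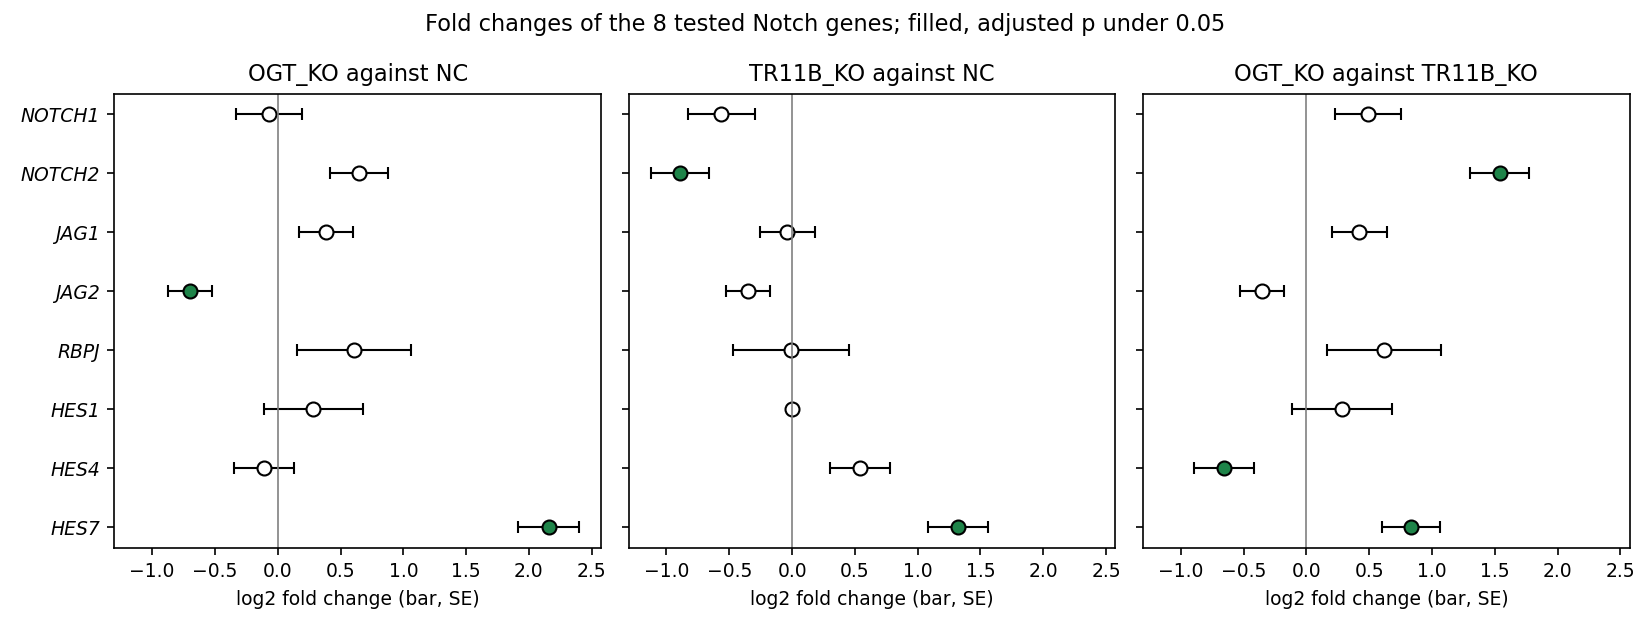
Log2 fold changes with SE (horizontal axis) of the 8 tested Notch genes in OGT_KO against NC, TR11B_KO against NC and OGT_KO against TR11B_KO; filled points passed an adjusted p of 0.05 and HES1 in TR11B_KO, at 0.00, has no SE. HES7 passed in all 3 comparisons, at 2.16, 1.32 and 0.83.

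Among the receptors, NOTCH2 (chromosome 1, 119911553 to 120069662) was the most abundant per length. It had 40.0, 54.0 and 45.7 CPM in OGT_KO and 13.1, 13.7 and 21.2 CPM in TR11B_KO, against 31.6, 34.8 and 22.7 CPM in NC. Every OGT_KO library was above every NC library, and every TR11B_KO library below every NC library. In TR11B_KO the fall was 0.89 ± 0.23 (SE) on the log2 scale, with an adjusted p of 0.0124 in edgeR. The 0.65 ± 0.23 in OGT_KO did not pass (adjusted p = 0.0658), but it passed under 5 of 20 other settings. These were DESeq2 (0.64, adjusted p = 0.0413), no low-count filter (0.65, adjusted p = 0.0265), only the groups compared (0.65, adjusted p = 0.000224), and the fits without TR11B_KO replicate 1 (0.67, adjusted p = 0.0235) or replicate 2 (0.65, adjusted p = 0.00362). With an offset for gene length the OGT_KO value was lower, at 0.42 (adjusted p = 0.184). It was also lower without OGT_KO replicate 2 (0.54, adjusted p = 0.226) or NC replicate 3 (0.49, adjusted p = 0.221). OGT_KO and TR11B_KO differed from each other by 1.54 ± 0.24 (adjusted p = 0.000319), with no overlap, where 33.2% of all tested genes were called. With the length offset this difference was 0.99 (adjusted p = 0.00392).

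The fall of NOTCH2 in TR11B_KO depended on several choices, and its call was lost under 4 of 20 other settings, among them those given here. Without NC replicate 1 or NC replicate 2 it was −0.81 (adjusted p = 0.0609) and −0.73 (adjusted p = 0.0789). NOTCH2 has 11784 bases, and the tested genes of 7154 to 47609 bases had a median log2 fold change of −0.31 in TR11B_KO and 0.21 in OGT_KO. The part of length in the result was not tested beyond the length-adjusted fit: with an offset for gene length, NOTCH2 in TR11B_KO was at −0.57 (adjusted p = 0.0717).

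NOTCH2 has near-identical partial copies on the same chromosome, NOTCH2NLA, NOTCH2NLB, NOTCH2NLC and NOTCH2NLR, and how reads common to them were counted is not given in the sources used here. NOTCH2NLR had 0 counts throughout. The most abundant copy, NOTCH2NLA, had 8.19, 6.96 and 5.98 CPM in OGT_KO and 14.6, 15.8 and 18.8 CPM in TR11B_KO, against 11.2, 8.24 and 10.5 CPM in NC, and had a log2 fold change of 0.72 ± 0.22 in TR11B_KO (adjusted p = 0.0255). This call of NOTCH2NLA was lost under 9 of 20 other settings. It was 0.61 without TR11B_KO replicate 3 (adjusted p = 0.093), 0.63 without NC replicate 2 (adjusted p = 0.114), 0.75 once NC replicate 3 was left out (adjusted p = 0.0543) and 0.57 with library totals as the only scaling (adjusted p = 0.0982). It was also lost in fits of only the compared groups (0.72, adjusted p = 0.0615), with the replicate block (0.73, adjusted p = 0.0535) and in all 3 limma fits on FPKM (adjusted p from 0.0984 to 0.137). The copies together took 20.7%, 13.8% and 16.9% of the summed NOTCH2 and copy signal in OGT_KO and 58.7%, 59.3% and 53.8% in TR11B_KO, against 31.9%, 23.1% and 43.2% in NC. The highest NC share, in replicate 3, held 5.03 CPM of NOTCH2NLC, where the other 8 libraries had 0.377 to 1.43 CPM. The sum was 50.5, 62.6 and 55.0 CPM in OGT_KO and 31.8, 33.6 and 45.9 CPM in TR11B_KO, against 46.4, 45.3 and 40.0 CPM in NC. For the sum, TR11B_KO overlapped NC, and a fit on summed counts, added after the values were seen, gave −0.24 in TR11B_KO (adjusted p = 0.354) and 0.35 in OGT_KO (adjusted p = 0.201). The difference between OGT_KO and TR11B_KO passed in the summed fit too, but at 0.60 (adjusted p = 0.0241). A change in NOTCH2 transcript and a change in how reads were shared with the copies cannot be told apart here.

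**Figure D3:**
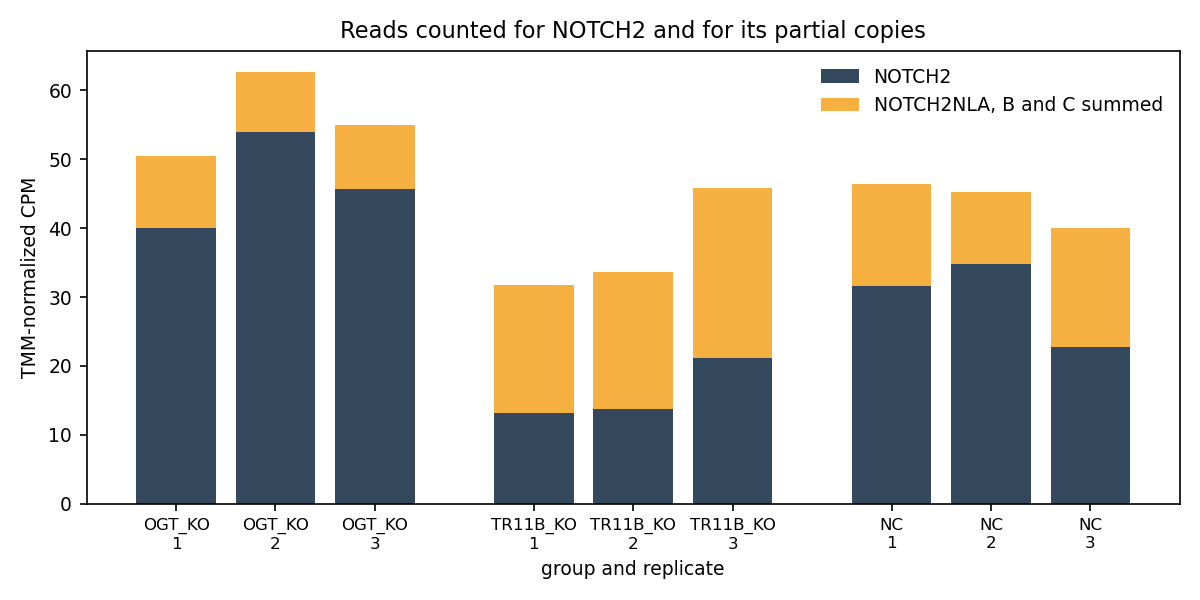
TMM-normalized CPM (vertical axis, from 0) counted for NOTCH2 and, stacked above it, for its copies NOTCH2NLA, NOTCH2NLB and NOTCH2NLC summed, in each of the 9 libraries. The copies take 53.8% to 59.3% of the bar in TR11B_KO, and 13.8% to 20.7% in OGT_KO, against 23.1% to 43.2% in NC.

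NOTCH1 (chromosome 9, 136494433 to 136546048), the receptor with the best-known oncogenic mutations in T-cell leukaemia, had 9.26, 10.0 and 12.3 CPM in OGT_KO and 4.45, 8.67 and 9.37 CPM in TR11B_KO, against 10.5, 11.9 and 10.8 CPM in NC. The OGT_KO libraries lay on both sides of those of NC, whereas all 3 TR11B_KO libraries were lower, replicate 1 by the most. Its log2 fold change was −0.07 ± 0.26 in OGT_KO (edgeR adjusted p = 0.883, 95% interval −0.63 to 0.49), and under 5 of 20 other settings it was above 0. In TR11B_KO it was −0.56 ± 0.26 (adjusted p = 0.128), which passed without TR11B_KO replicate 2 (−0.64, adjusted p = 0.0398). NOTCH1, of 9568 bases, is also among those long genes. NOTCH3, a receptor best known from vascular smooth muscle, had 1, 0 and 0 counts in OGT_KO and 0, 0 and 0 in TR11B_KO, against 4, 0 and 0 in NC, so no difference was detectable at this depth (exact two-sided permutation p = 1 for each knockout, where 0.1 is the smallest value possible).

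JAG2 (chromosome 14, 105140995 to 105168776) was the more abundant ligand. It had 68.5, 57.4 and 66.8 CPM in OGT_KO and 65.7, 97.0 and 83.0 CPM in TR11B_KO, against 105, 101 and 107 CPM in NC. All 6 knockout libraries were below the NC libraries, and those of NC differed little among themselves. JAG2 fell in OGT_KO by 0.70 ± 0.17 (edgeR adjusted p = 0.0138). This did not pass once OGT_KO replicate 2 was left out (−0.62, adjusted p = 0.083), or NC replicate 1 (−0.69, adjusted p = 0.0649). In TR11B_KO the value was −0.35 ± 0.17 (adjusted p = 0.151). It reached −0.45 without TR11B_KO replicate 2 (adjusted p = 0.0185) and −0.52 with library totals as the only scaling (adjusted p = 0.0125), but was −0.09 with the length offset (adjusted p = 0.773). The difference between the knockouts did not pass (−0.35, 95% interval −0.72 to 0.02, adjusted p = 0.136), but passed without TR11B_KO replicate 1 (−0.53, adjusted p = 0.0131).

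JAG1 (chromosome 20, 10637684 to 10673999), whose loss of one copy causes Alagille syndrome, had 8.21, 7.09 and 6.29 CPM in OGT_KO and 6.02, 5.61 and 4.48 CPM in TR11B_KO, against 5.42, 5.18 and 5.95 CPM in NC. All OGT_KO libraries lay above NC, while TR11B_KO and NC overlapped. Neither 0.38 ± 0.22 in OGT_KO (edgeR adjusted p = 0.236) nor −0.04 ± 0.22 in TR11B_KO (adjusted p = 0.914, and above 0 under 6 of 20 other settings) passed the test. RBPJ (chromosome 4, 26105449 to 26435131), the DNA-binding partner of all Notch receptors, had 2.32, 2.68 and 1.17 CPM in OGT_KO and 1.60, 0.516 and 1.87 CPM in TR11B_KO, against 0.789, 1.60 and 1.66 CPM in NC. The groups overlapped, and the log2 fold changes of 0.61 ± 0.45 (adjusted p = 0.373) and −0.01 ± 0.46 (adjusted p = 0.992) did not pass. The 95% interval in OGT_KO, −0.36 to 1.57, was wide at this depth.

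HES7 (chromosome 17) is a basic helix-loop-helix repressor known from mice for its oscillation in the segmentation clock of the embryo. It had 576, 546 and 574 counts in OGT_KO and 224, 291 and 283 in TR11B_KO, against 132, 125 and 104 in NC. As levels these were 13.1, 12.3 and 13.7 CPM in OGT_KO and 5.33, 9.38 and 7.25 CPM in TR11B_KO, against 3.15, 2.94 and 2.66 CPM in NC. The 3 groups did not overlap at all, with TR11B_KO between the other groups. HES7 rose 4.46-fold in OGT_KO (log2 fold change 2.16 ± 0.24, edgeR adjusted p = 6.84e-05) and 2.50-fold in TR11B_KO (1.32 ± 0.24, adjusted p = 0.00157). It was 1.78-fold higher in OGT_KO than in TR11B_KO (0.83 ± 0.23, adjusted p = 0.0138). All 3 calls held under each of the 20 other settings, with the lowest values 1.44, 0.62 and 0.60, the first 2 of these on the log2(FPKM + 1) scale, which understates changes of low genes, and the last without TR11B_KO replicate 1 (adjusted p = 0.0364).

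The nearest tested genes on either side of HES7, looked up after its values were seen, did not pass the test. CNTROB, a centrosomal protein gene 170671 bases away, had log2 fold changes of −0.18 in OGT_KO (edgeR adjusted p = 0.527) and −0.11 in TR11B_KO (adjusted p = 0.699). PER1, a circadian clock gene 13837 bases away, had 0.07 (adjusted p = 0.863) and −0.17 (adjusted p = 0.619). No gene in the GENCODE release 29 annotation overlaps HES7, HES4 or HES1.

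Over the 9 libraries, the 3 tested genes of at least 2 in average log2 CPM whose pattern lay nearest to HES7 were VASH1, SLC16A13 and TLE2, out of 7020 candidates. The root mean square difference of their centred log2 CPM from that of HES7 was 0.17, 0.19 and 0.20. VASH1, an angiogenesis inhibitor and tubulin carboxypeptidase, had log2 fold changes of 2.39 in OGT_KO and 1.52 in TR11B_KO. SLC16A13, a monocarboxylate transporter family gene, had 1.99 and 1.49, and TLE2, a Groucho-family co-repressor, 1.86 and 1.01. These genes were picked for their likeness, so their values describe the pattern and test nothing.

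**Figure D4:**
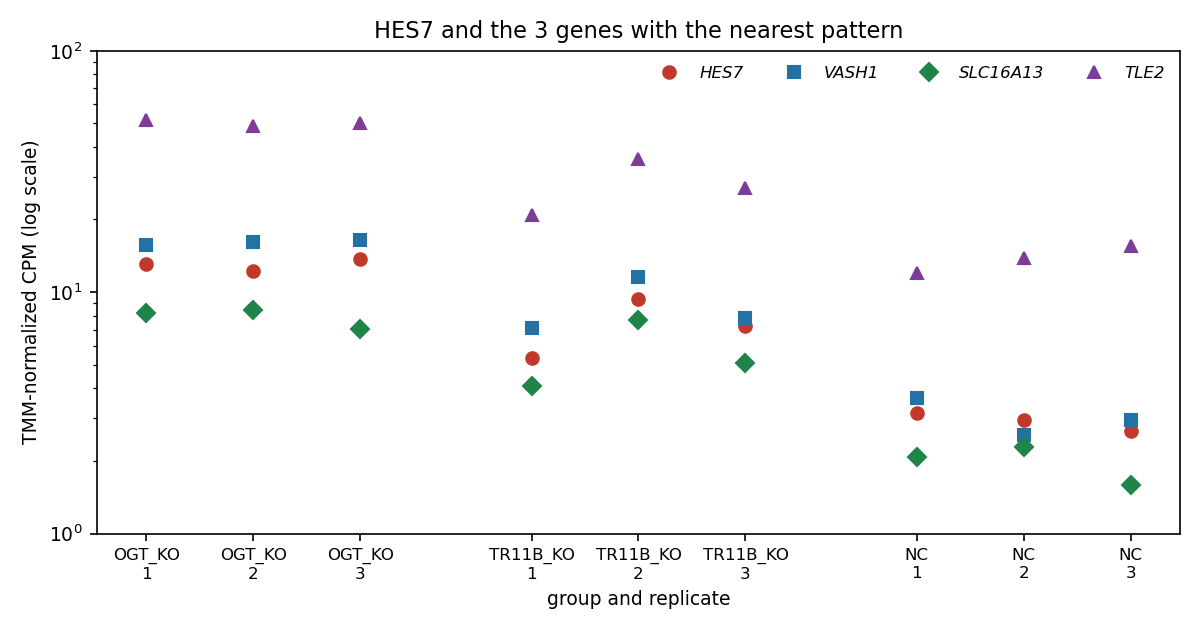
TMM-normalized CPM on a log axis of HES7 and of the 3 genes nearest to it in pattern, in each library of OGT_KO, TR11B_KO and NC. For each gene the OGT_KO libraries lie above the NC libraries, and TR11B_KO replicate 2 is the highest of the TR11B_KO libraries.

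HES4 (chromosome 1, 998964 to 1000097), the abundant family member, had 134, 99.9 and 136 CPM in OGT_KO and 134, 275 and 173 CPM in TR11B_KO, against 129, 116 and 155 CPM in NC. OGT_KO and NC overlapped. HES4 was above all NC libraries in TR11B_KO replicates 2 and 3, and highest in replicate 2, the library that stood apart. Its log2 fold change was −0.11 ± 0.24 in OGT_KO (edgeR adjusted p = 0.787, and above 0 without OGT_KO replicate 2 or NC replicate 3). In TR11B_KO it was 0.54 ± 0.24 (adjusted p = 0.106), and it passed under 2 of 20 other settings. Among these was the fit without TR11B_KO replicate 1 (0.81, adjusted p = 0.00796). The direct comparison of OGT_KO with TR11B_KO gave −0.65 ± 0.24 (adjusted p = 0.0485), but its groups overlapped and the call was lost under 15 of 20 other settings. It was −0.72, −0.55 and −0.73 without OGT_KO replicate 1, 2 or 3, −0.35 and −0.73 without TR11B_KO replicate 2 or 3, and −0.69, −0.69 and −0.65 without NC replicate 1, 2 or 3, with adjusted p from 0.0559 to 0.185. HES4 has 1920 bases, and tested genes of 111 to 2047 bases had a median log2 fold change of 0.42 in TR11B_KO against NC. Their median was −0.32 in OGT_KO against TR11B_KO. The part of length in the HES4 values was not tested beyond the length-adjusted fit. Over the 20 other settings, that fit among them, HES4 ran from 0.24 to 0.81 in TR11B_KO against NC (adjusted p up to 0.305). Between OGT_KO and TR11B_KO it ran from −0.91 to −0.33 (adjusted p up to 0.254). The nearest tested genes on both sides of HES4, looked up after its values were seen, rose in TR11B_KO, where 13.2% of all tested genes rose. ISG15, an interferon-induced gene 13399 bases away, rose by 1.16 (adjusted p = 0.00406), and PERM1, 16870 bases away, by 3.66 (adjusted p = 0.0117). Neighbours of other Notch genes rose there beside a gene with a negative value. These were PHGDH beside NOTCH2 (2.16, adjusted p = 3.06e-05) and NUDT14 beside JAG2 (1.21, adjusted p = 0.00336). The genes on the other sides of NOTCH2 and JAG2 did not pass. Whether neighbours changed together was not tested.

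HES1 (chromosome 3, 194136148 to 194138732) had 1.57, 1.94 and 1.81 CPM in OGT_KO and 2.19, 0.645 and 1.49 CPM in TR11B_KO, against 1.58, 1.86 and 0.920 CPM in NC. All 3 groups overlapped, with TR11B_KO replicate 2 the lowest library. Its log2 fold change was 0.28 ± 0.40 in OGT_KO (edgeR adjusted p = 0.661, 95% interval −0.57 to 1.13) and 0.00 in TR11B_KO (adjusted p = 1, −0.37 to 0.37 over 20 other settings). HEY1, a further Notch-induced repressor, had 0, 0 and 6 counts in OGT_KO and 1, 0 and 1 in TR11B_KO, against 1, 1 and 0 in NC, and no difference was detectable (exact two-sided permutation p = 1 and 0.8). Of HES1, HES4 and HES7, only HES7 was called in the knockouts against NC. In TR11B_KO, HES4 had the same direction as HES7, with 95% intervals of 0.03 to 1.05 and 0.81 to 1.84. The differences between these genes were not tested. HES6, given below with the other targets, also rose in TR11B_KO.

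The wider Notch pathway was described from a list of 79 genes in 8 roles, of which 75 were in the tables and 64 were tested. Without the 10 genes above, 9 of 56 tested genes rose and 8 fell in OGT_KO, with a median of 0.04, and 6 rose and 11 fell in TR11B_KO, with a median of −0.14. In all, 30.4% of these 56 were called in each knockout, where 18.3% of all tested genes were called in OGT_KO and 27.6% in TR11B_KO. Between OGT_KO and TR11B_KO, 13 of the 56 were higher in OGT_KO and 8 lower, 37.5% in all, with a median of 0.32. Of all tested genes, 16.7% were higher and 16.5% lower there, 33.2% in all, with a median of 0.06. Leaving out libraries changed the count for the whole list of 64, from 19 in each knockout to between 9 and 28 in OGT_KO and between 11 and 27 in TR11B_KO. In OGT_KO it was 11 without OGT_KO replicate 1, 12 without replicate 2, and 9, 11 and 12 without NC replicate 1, 2 and 3. In TR11B_KO it was 11 without NC replicate 1.

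Of 10 tested enzymes that build sugars on Notch EGF repeats, 1 rose, 3 fell and 6 did not pass the test in OGT_KO, and 0 rose, 2 fell and 8 did not pass in TR11B_KO. The shares called, 40% in OGT_KO and 20% in TR11B_KO, stood beside 18.3% and 27.6% of all tested genes. XXYLT1, which adds the outer xylose to O-glucose glycans, was at 0.523, 0.450 and 0.643 CPM in OGT_KO and 4.07, 2.13 and 4.59 CPM in TR11B_KO, against 6.07, 5.84 and 5.55 CPM in NC, a log2 fold change of −3.43 ± 0.32 in OGT_KO (edgeR adjusted p = 1.49e-05) and −0.69 ± 0.28 in TR11B_KO (adjusted p = 0.0793). LFNG, the lunatic fringe enzyme that lengthens O-fucose, fell in OGT_KO by 1.00 ± 0.21 (adjusted p = 0.00592) and in TR11B_KO by 0.76 ± 0.21 (adjusted p = 0.017). The TR11B_KO call of LFNG was lost without NC replicate 1 (−0.69, adjusted p = 0.085) or NC replicate 3 (−0.74, adjusted p = 0.0516).

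POFUT1, which attaches that fucose, was at 95.2, 105 and 103 CPM in OGT_KO and 81.6, 65.4 and 82.4 CPM in TR11B_KO, against 169, 154 and 134 CPM in NC. It fell in TR11B_KO by 1.00 ± 0.17 (edgeR adjusted p = 0.00101) and in OGT_KO by 0.59 ± 0.17 (adjusted p = 0.0243). The OGT_KO call of POFUT1 was lost without OGT_KO replicate 1, 2 or 3 (−0.55, −0.61 and −0.60) and without NC replicate 1 or 2 (−0.51 and −0.59), with adjusted p from 0.0731 to 0.133. It was also lost with library totals (−0.47, adjusted p = 0.0905), with the replicate block (−0.59, adjusted p = 0.0645) and in the 3 limma fits on FPKM (adjusted p from 0.0981 to 0.145). EOGT, the O-GlcNAc transferase of the EGF repeats, was at 3.73, 2.93 and 3.02 CPM in OGT_KO and 3.17, 4.16 and 3.30 CPM in TR11B_KO, against 2.39, 2.78 and 1.99 CPM in NC, higher in every knockout library without passing the test (0.43, adjusted p = 0.234, and 0.57, adjusted p = 0.101).

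**Figure D5:**
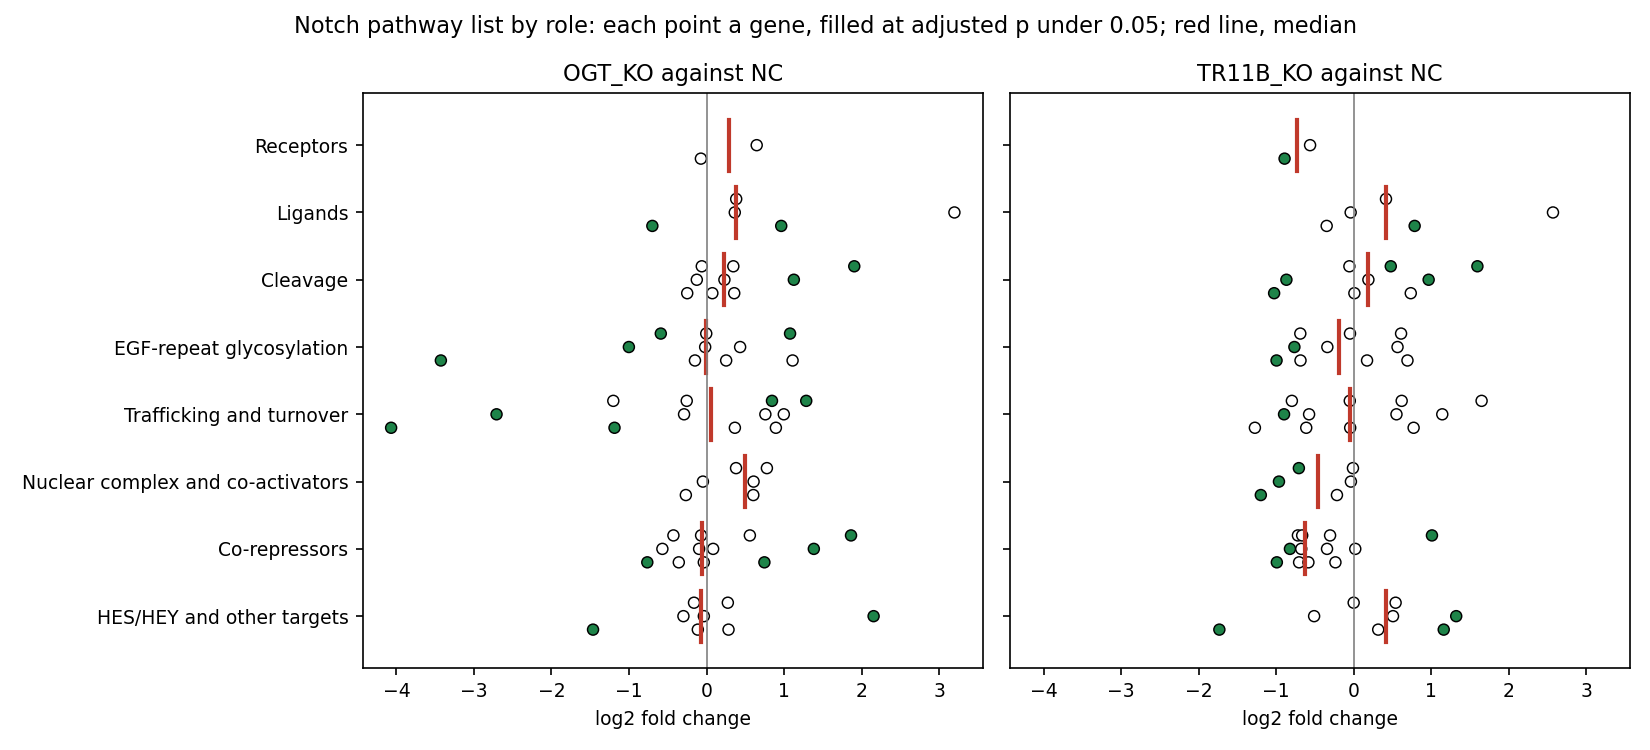
Log2 fold changes (horizontal axis) of the tested genes of the Notch pathway list by role in OGT_KO against NC and TR11B_KO against NC; each point is a gene, filled at an adjusted p under 0.05, and the red line is the median of the role. The lowest filled points of the EGF-repeat glycosylation row are XXYLT1 in OGT_KO, at −3.43, and POFUT1 in TR11B_KO.

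Among the other roles, 2 of 9 cleavage genes rose and 0 fell in OGT_KO, and 3 rose and 2 fell in TR11B_KO. The shares called, 22.2% in OGT_KO and 55.6% in TR11B_KO, stood beside 18.3% and 27.6% of all tested genes. NCSTN, the gamma-secretase subunit nicastrin, fell in TR11B_KO by 0.87 ± 0.17 (edgeR adjusted p = 0.00243), whereas the subunits APH1B and PSENEN rose there by 1.60 ± 0.35 (adjusted p = 0.00492) and 0.97 ± 0.18 (adjusted p = 0.00193). PSENEN has 1124 bases, and the median log2 fold change in TR11B_KO was 0.42 over tested genes of 111 to 2047 bases. With the length offset PSENEN was at 0.54 and no longer called (adjusted p = 0.0503). Of 12 tested trafficking and turnover genes, 2 rose and 3 fell in OGT_KO, and 0 rose and 1 fell in TR11B_KO. These were 41.7% and 8.33%, beside the same 18.3% and 27.6% of all tested genes. MIB1, the ubiquitin ligase that drives ligand endocytosis, rose in OGT_KO by 1.29 ± 0.27 (adjusted p = 0.00519), and NUMBL, a Numb-like adaptor, fell there by 1.19 ± 0.17 (adjusted p = 0.000532).

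Of 12 tested co-repressors, 3 rose and 1 fell in OGT_KO, and 1 rose and 2 fell in TR11B_KO. These were 33.3% and 25%, where 18.3% and 27.6% of all tested genes were called. SPEN, which represses with RBPJ in the absence of Notch, rose in OGT_KO by 1.38 ± 0.23 (edgeR adjusted p = 0.00104). TLE2, already named for its likeness to HES7, rose by 1.86 ± 0.21 in OGT_KO (adjusted p = 7.69e-05) and by 1.01 ± 0.21 in TR11B_KO (adjusted p = 0.0035), while its relative TLE1 fell in TR11B_KO by 0.99 ± 0.25 (adjusted p = 0.0102). Of 6 tested genes of the nuclear complex and its co-activators, 0 were called in OGT_KO, where 18.3% of all tested genes were called. In TR11B_KO 3 of the 6 fell and 0 rose, 50% beside 27.6% of all tested genes. Among these EP300, a histone acetyltransferase, had −1.20 ± 0.29 (adjusted p = 0.00797). Its call was lost without NC replicate 2 (−0.95, adjusted p = 0.0544) and with limma on log2(FPKM + 1) without the filter (−0.54, adjusted p = 0.0937).

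Of 8 tested HES, HEY and other target genes, 1 rose and 1 fell in OGT_KO, and 2 rose and 1 fell in TR11B_KO, counts that include HES7. The shares called, 25% and 37.5%, stood beside 18.3% and 27.6% of all tested genes. MYC, a growth-promoting transcription factor that Notch is known to switch on in T-cell leukaemia, fell by 1.46 ± 0.31 in OGT_KO (edgeR adjusted p = 0.00523) and by 1.73 ± 0.31 in TR11B_KO (adjusted p = 0.00147). HES6, a family member that counters HES1, rose in TR11B_KO by 1.16 ± 0.19 (adjusted p = 0.00101). HES6 has 1368 bases, and the median log2 fold change in TR11B_KO was 0.42 over tested genes of 111 to 2047 bases. The OGT_KO call of MYC was lost with limma on log2(FPKM + 1) without the filter (−1.25, adjusted p = 0.0714). MYC, HES6 and HES7 did not move in one direction in TR11B_KO. Among the ligands beside JAG1 and JAG2, DLK2, a non-canonical ligand, rose by 0.96 ± 0.23 in OGT_KO (adjusted p = 0.0109) and by 0.79 ± 0.23 in TR11B_KO (adjusted p = 0.0216). The OGT_KO call of DLK2 was lost without OGT_KO replicate 1 (0.82, adjusted p = 0.0662) or NC replicate 3 (0.84, adjusted p = 0.0548). Its TR11B_KO call was lost without NC replicate 1 (0.84, adjusted p = 0.0613) or NC replicate 3 (0.67, adjusted p = 0.0844), with library totals (0.62, adjusted p = 0.0577) and in a fit of only the compared groups (0.79, adjusted p = 0.058).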

How the data were processed

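RNA-seq counts for A549 libraries were analysed. Per the submitters' processing notes, fastp, HISAT, HTSeq, R 3.2.0 and DESeq2 were used with GRCh38, with no roles stated. The authors deposited raw counts per gene and FPKM values; 0 other per-sample columns were present. The Notch genes, the pathway list and the naming rule (all 10 Notch genes, up to 4 list genes a role with the smallest adjusted p, EOGT, POFUT1, and the nearest patterns) were chosen with earlier results of these data known, and not all list genes are named. Counts were tested with edgeR 4.0.16 (R 4.3.3): filterByExpr, TMM scaling, and the robust quasi-likelihood F test on all 9 libraries with 1 mean per group, Benjamini-Hochberg adjusted over 12574 genes. CPM is per 1e6 TMM-scaled counts. SE is the log2 fold change over the square root of F, and is not given for changes near 0. In simulated counts with known changes in OGT_KO, the fit called 64% of the genes changed by 1 on the log2 scale. It called 95% of those changed by 2, with 6 false calls. The simulated libraries shared 1 spread, so TR11B_KO replicate 2 did not stand apart in them. Alternatives used DESeq2 1.42.0, limma 3.58.1 on log2(FPKM + 0.1) and log2(FPKM + 1), other scalings, filters and offsets. Same-numbered libraries of different groups did not deviate together (correlations −0.199 to 0.069), so numbers were not taken as pairs. Replicates differed by more than sampling noise (chi-square per degree of freedom 8.2 to 260.5). Intervals cover the spread between libraries.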

Additional observations from a re-analysis of the deposited data

How the results depend on the processing

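Over 20 alternatives and 24 values (8 tested Notch genes in 3 comparisons), 407 of 480 results kept direction and side of the threshold, 21 lost a call, 21 gained one and 31 changed sign, none of the last for a called value. Of the Notch genes, 2 were called in OGT_KO against NC, and 1 to 3 with single libraries left out. In TR11B_KO against NC 2 were called, 1 with the length offset and 1 to 4 with libraries left out. Between the knockouts 3 were called, and 2 to 4 with libraries left out. With libraries left out, calls in the pathway list ranged from 9 to 28 in OGT_KO, 11 to 27 in TR11B_KO and 15 to 31 between the knockouts. All tested genes ranged from 1088 to 4512 in OGT_KO (2303 in all libraries, 4512 without TR11B_KO replicate 2), from 1825 to 4473 in TR11B_KO (3469) and from 2398 to 5291 between them (4174). Fits of only the groups compared called 5158 genes in OGT_KO and 2236 in TR11B_KO. The cause was not tested. Sign changes had adjusted p of at least 0.441. NOTCH1 in OGT_KO was 0.0399 with library totals, 0.0309 with limma on FPKM + 0.1 and 0.0196 on FPKM + 1, with or without the filter. In TR11B_KO, JAG1 was 0.0203 with DESeq2, 0.0204 with RLE, 0.016 with the CPM filter and 0.21 with the length offset. HES1 there was 0.0466 with DESeq2, 0.0487 with RLE, 0.022 with no filter and 0.0521 with the CPM filter. RBPJ there was 0.0359 with DESeq2, 0.0417 with RLE and with the CPM filter, 0.0148 with no filter and 0.25 with the length offset. With single libraries left out, NOTCH1 ranged from −0.2002 to 0.0117 and HES4 from −0.2048 to 0.025 in OGT_KO. In TR11B_KO, JAG1 ranged from −0.0658 to 0.0766, HES1 from −0.3667 to 0.3714 and RBPJ from −0.3276 to 0.3948, and HES1 between the knockouts from −0.0816 to 0.6709. Library totals moved the median of all genes to 0.15 in OGT_KO, −0.15 in TR11B_KO and 0.31 between them. With the replicate number as a block, which pairs no samples here, 1609, 2612 and 3403 genes were called in OGT_KO, in TR11B_KO and between them, and 2, 2 and 2 Notch genes. The only Notch call lost to the block was that of HES4 between the knockouts (−0.63, adjusted p = 0.0929). NOTCH3 and HEY1, at 0 to 6 counts a library, cannot show a change at this depth.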
